A study of Mus musculus with 8 samples.

Results

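The genes described here encode the receptors for corticosteroids and the proteins that set how those receptors respond. They are the 2 receptors (Nr3c1 and Nr3c2), a steroid-activating enzyme (Hsd11b1), 3 chaperones of the receptor complex (Fkbp4, Fkbp5 and Ptges3) and 3 coregulators (Ncoa1, Ncoa2 and Ncor1). They were taken by symbol from a table of read counts for 55487 mouse genes, and all 9 were among the 17047 genes with enough counts to be tested. RNA came from the hypothalamus of C57BL/6J mice. In the hypoxia group, 4 mice spent 2 hours in a chamber at 7% oxygen with the rest nitrogen, and in the normoxia group 4 mice were kept at 21% oxygen. The labels give no age or sex. The series title poses the question of how low oxygen changes the function of the glucocorticoid receptor.

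Corticosterone, the main glucocorticoid of mice, acts through the mineralocorticoid receptor at low hormone levels and additionally through the glucocorticoid receptor at stress levels. Without hormone, the glucocorticoid receptor waits in the cytoplasm in a complex with the heat shock protein HSP90 and co-chaperones. Once hormone binds, it enters the nucleus and recruits coactivators or corepressors to its target genes, and in the hypothalamus it is part of the feedback that restrains the hormonal stress response.

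Total counts per library ran from 16994473 to 21694383, and the members had between 127 and 4344 reads in a library. Library sizes were evened out by TMM scaling, and levels are given as CPM, the reads of a gene scaled to an equal library size. All 9 hypothalamic marker genes looked for (Avp, Oxt, Hcrt, Pmch, Agrp, Pomc, Sim1, Nkx2-1 and Otp) had reads, with summed levels of 652 to 780 CPM in hypoxia and 348 to 793 CPM in normoxia. Normoxia replicate 2 stood apart from the other 7 libraries: it was the highest or the lowest of the 8 in 51.5% of the genes tested, against 13.5% to 26.9% for each other library. It had the lowest hypothalamic marker sum and, at 457 CPM, the highest sum of 6 cortex and hippocampus markers, which lay at 52.0 to 137 CPM in hypoxia and 74.3 to 143 CPM in the other normoxia libraries. None of those 6 markers was at 0. In whole tissue, fewer cells of a type and less RNA per cell cannot be told apart.

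Of the 9 genes, 0 were called different between hypoxia and normoxia by edgeR's quasi-likelihood test (p adjusted by Benjamini and Hochberg's method across the 17047 genes, threshold 0.05), where 2.15% of all genes tested were called. At an unadjusted p under 0.05 there was 1 member, Fkbp5, where 19.3% of all genes tested passed. DESeq2 called 1 member, again Fkbp5, and 5.91% of all genes. No member had groups without overlap, against 13.4% of all genes tested.

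**Figure D1:**
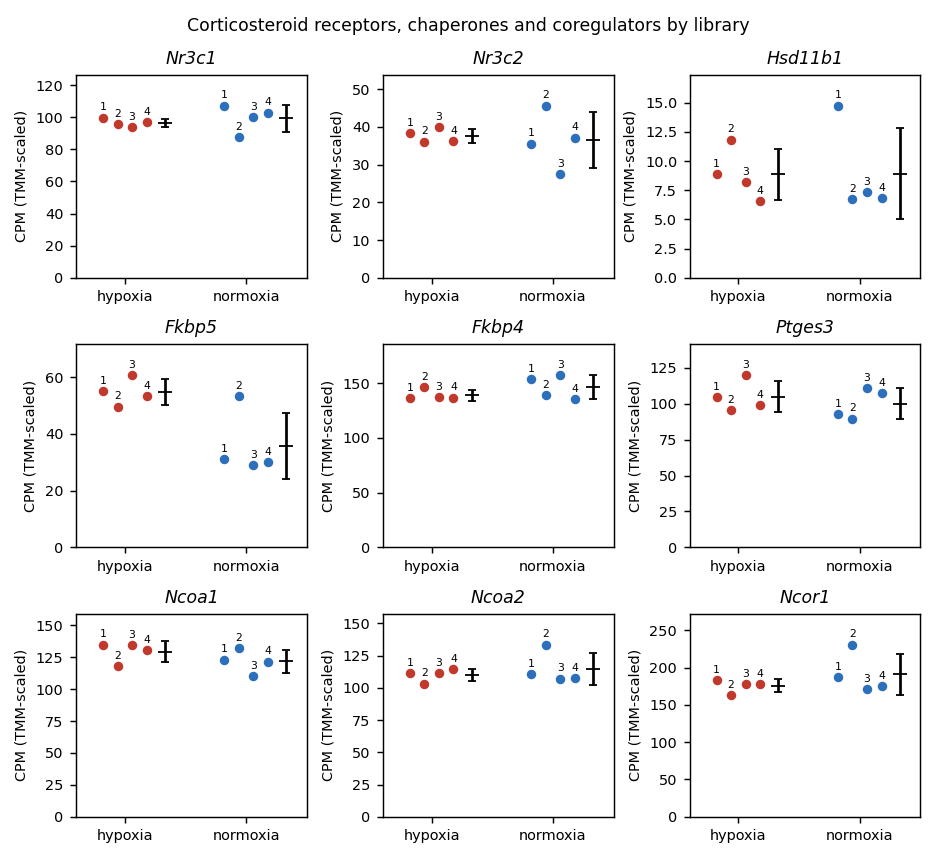
TMM-scaled CPM of the 9 genes in each library, with hypoxia in red and normoxia in blue, numbers giving the replicate, and bars the mean ± SD of 4 libraries. Fkbp5 lay at 49.7 to 60.8 CPM in hypoxia, against 29.0 to 31.0 CPM in normoxia replicates 1, 3 and 4 and 53.3 CPM in normoxia replicate 2.

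Nr3c1, on chromosome 18 (39410545 to 39519421, minus strand, mm10), encodes the glucocorticoid receptor. It was at 99.8, 95.8, 93.7 and 96.9 CPM in hypoxia replicates 1 to 4, against 107, 87.7, 99.98 and 103 CPM in normoxia replicates 1 to 4. The hypoxia values fell inside the range of the normoxia values, which was set at its low end by replicate 2. By edgeR's quasi-likelihood test, the log2 difference was −0.04 ± 0.06 (SE; adjusted p = 0.751), and its 95% interval of −0.18 to 0.10 spans 0.880-fold to 1.07-fold. Nr3c1 was one of the steadiest of the 9 genes, with a within-group SD of 0.09 in log2 CPM, below the median of 0.15 over all genes tested. Without normoxia replicate 2 the log2 fold change was −0.09 (edgeR, adjusted p = 0.213). All 4 hypoxia libraries then lay below the 3 normoxia libraries, but only narrowly, at 99.81 CPM in hypoxia replicate 1 against 99.98 CPM in normoxia replicate 3. Removing the only normoxia library below hypoxia made this so, and the share of all genes separated in that split was not counted.

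Nr3c2, on chromosome 8 (76899442 to 77245012, plus strand), encodes the mineralocorticoid receptor, which binds corticosterone with the higher affinity. It was at 38.3, 36.1, 40.0 and 36.2 CPM in hypoxia, against 35.5, 45.7, 27.4 and 37.2 CPM in normoxia. The 4 hypoxia libraries lay close together between the lowest normoxia library, replicate 3, and the highest, replicate 2. Its log2 fold change was 0.05 ± 0.13 (SE; adjusted p = 0.879), with a 95% interval of −0.24 to 0.34, or 0.844-fold to 1.26-fold. The coefficient of variation was 4.87% in hypoxia and 20.5% in normoxia. An exon of Gm10649 overlaps Nr3c2 on the opposite strand, so its level is uncertain if the counting ignored strand.

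Hsd11b1, on chromosome 1 (193221634 to 193264075, minus strand), encodes the enzyme that turns inert 11-dehydrocorticosterone back into corticosterone inside cells. It was the lowest and most variable of the 9, at 8.85, 11.8, 8.21 and 6.59 CPM in hypoxia, against 14.8, 6.75, 7.35 and 6.81 CPM in normoxia. The groups overlapped, and normoxia replicate 1 stood far above the rest of its group. Hypoxia relative to normoxia, the log2 fold change was −0.01 ± 0.28 (SE; adjusted p = 0.984), and the 95% interval of −0.64 to 0.61 allows anything from 0.642-fold to 1.53-fold. Leaving out normoxia replicate 1 turned the sign, to a log2 fold change of 0.35 (adjusted p = 0.359).

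The 2 libraries highest in Hsd11b1, hypoxia replicate 2 and normoxia replicate 1, were also the 2 highest in the summed level of 5 myelinating oligodendrocyte markers, at 9200 and 10743 CPM. That sum was 6145 to 9200 CPM in hypoxia and 5993 to 10743 CPM in normoxia, and all 5 markers were tested and none was at 0. The same libraries were also the 2 highest in the sum of 5 endothelial markers, at 206 and 211 CPM. The endothelial sum was 176 to 206 CPM in hypoxia and 177 to 211 CPM in normoxia. The sum of 4 mural markers was highest in normoxia replicate 1, at 172 CPM. Normoxia replicate 1 also had the highest sum of 5 thalamus markers, 349 CPM against 135 to 199.8 CPM in the other 7 libraries, with no marker at 0. The part of these cell types or regions in the Hsd11b1 values was not tested.

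Fkbp5, on chromosome 17 (28399094 to 28517527, minus strand), encodes FKBP51, a co-chaperone that lowers the affinity of the receptor for hormone and is itself induced by glucocorticoids. Its partner Fkbp4, on chromosome 6 (128429735 to 128438677, minus strand), encodes FKBP52, which takes the place of FKBP51 when hormone binds and links the receptor to the dynein motor. The 250 bases before the annotated RefSeq start of each gene (GRCm38.p6, read on the gene's strand) are given below to set this pair side by side. Capitals mark matches, on either strand, to any of 4 motifs searched: the 13-base glucocorticoid response element GNACANNNTGTNC, its half-site AGAACA, the hypoxia response element core ACGTG and the heat shock element GAANNTTC.
Fkbp5, chr17:28486150-28486399, minus strand: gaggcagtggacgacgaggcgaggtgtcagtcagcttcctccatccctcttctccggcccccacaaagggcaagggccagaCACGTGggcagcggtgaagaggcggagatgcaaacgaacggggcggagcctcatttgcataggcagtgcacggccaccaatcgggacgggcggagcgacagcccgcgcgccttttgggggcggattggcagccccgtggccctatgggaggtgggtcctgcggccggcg
Fkbp4, chr6:128438657-128438906, minus strand: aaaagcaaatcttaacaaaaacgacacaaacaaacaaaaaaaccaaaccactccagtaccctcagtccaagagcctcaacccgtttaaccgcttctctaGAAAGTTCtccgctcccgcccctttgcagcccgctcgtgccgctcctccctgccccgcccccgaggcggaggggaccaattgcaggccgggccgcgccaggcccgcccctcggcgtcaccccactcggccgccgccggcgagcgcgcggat

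The Fkbp5 window held CACGTG, a palindrome that matches the hypoxia core once on each strand, 169 bases before the start. The Fkbp4 window held the heat shock element GAAAGTTC, 151 bases before the start. Of the 32851 promoter windows of this length in the RefSeq table, 16.6% held the hypoxia core, 6.69% the heat shock element, 16.1% the half-site and 0.39% the full glucocorticoid element. Neither window held the half-site or the full element, but only these 250 bases of each gene were searched. The RefSeq start used for Fkbp5 lies inside the longer span of the gene given above. Windows were found for 7 of the 9 members. Among the others, Nr3c2 held a heat shock element, and 1 of the 2 Ncor1 windows held 2 half-sites and 1 hypoxia core, while the windows of Hsd11b1, Ptges3 and Ncoa1 held none of the 4. A match is a string of letters in these windows and no measure of binding.

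Fkbp5 had 55.1, 49.7, 60.8 and 53.5 CPM in hypoxia, against 31.0, 53.3, 29.0 and 29.9 CPM in normoxia. All 4 hypoxia libraries lay above normoxia replicates 1, 3 and 4, and normoxia replicate 2 lay among the hypoxia libraries. The means were 54.8 ± 4.62 CPM in hypoxia and 35.8 ± 11.7 CPM in normoxia (SD, n = 4 each). The log2 fold change was 0.61 ± 0.18 (SE), or 1.53-fold with a 95% interval of 1.15 to 2.04. This had an adjusted p of 0.114 by edgeR's quasi-likelihood test and did not pass the threshold, and DESeq2 gave an adjusted p of 0.0211.

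Without normoxia replicate 2, edgeR called Fkbp5 higher in hypoxia (adjusted p = 0.000856), in a fit where 3.91% of all genes were called. The normoxia mean of the other 3 libraries was 30.0 ± 1.02 CPM (SD, n = 3), and the log2 fold change was 0.87 ± 0.07 (SE), or 1.83-fold with a 95% interval of 1.64 to 2.05. Leaving out the only normoxia library among the hypoxia values made the groups separate and narrowed the normoxia spread. The call and interval of this fit are thus no independent support. With hypoxia replicate 4 left out as well Fkbp5 was also called, along with 6.98% of all genes. Hypoxia replicate 4 was the lowest of its group in the 14 receptor targets described below. That fit thus dropped from each group the library nearest the other in those targets, and is no independent support. Leaving out any single library other than normoxia replicate 2 left Fkbp5 uncalled, with log2 fold changes of 0.53 to 0.66. Over the 17 alternatives tried, its adjusted p ran from 0.000614 to 0.295 and its log2 fold change from 0.53 to 0.88.

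Normoxia replicate 2 was also the highest of its group in the mean level of 14 known receptor targets. Their mean log2 CPM relative to the 8-library mean was 0.48, 0.57, 0.54 and 0.15 in hypoxia replicates 1 to 4, against −0.58, 0.08, −0.58 and −0.66 in normoxia replicates 1 to 4. The same library had the highest cortex and hippocampus marker sum, given above, and the highest pituitary marker sum, 80.3 CPM against 0.193 to 42.3 CPM in hypoxia and 0.954 to 9.64 CPM in the other normoxia libraries. Of the 5 pituitary markers 3 had enough counts to be tested, and each had reads in at least 1 library. Prl at 40.4 CPM and Gh at 38.9 CPM made up nearly all of the sum in normoxia replicate 2, while Cga was at 0.744 CPM there, against 0 to 3.48 CPM in hypoxia and 0.454 to 3.45 CPM in the other normoxia libraries. The sum of 6 striatum markers was 384 to 635 CPM in hypoxia, against 214, 579, 231 and 487 CPM in normoxia replicates 1 to 4. Normoxia replicate 2 was thus the highest of its group there too, while normoxia replicate 4 lay within the hypoxia range in that sum but not in Fkbp5. The part of these regions in the Fkbp5 values of that library and of the groups was not tested.

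**Figure D2:**
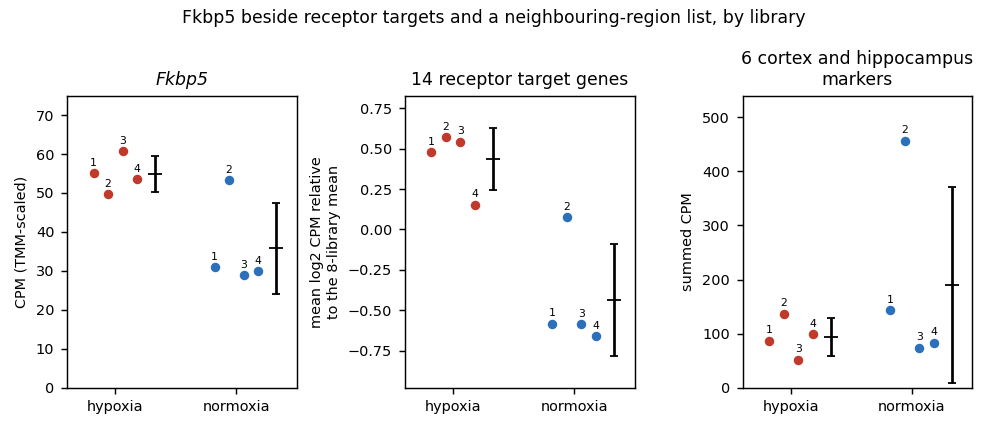
Fkbp5 in CPM, the mean log2 CPM of 14 receptor target genes relative to the 8-library mean, and the summed CPM of 6 cortex and hippocampus markers, by library, with the replicate number at each point and the mean ± SD of 4 libraries as bars. Normoxia replicate 2 is the highest of its group in all 3 panels, at 53.3 CPM, 0.08 and 457 CPM.

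Fkbp4 was at 136, 146, 137 and 137 CPM in hypoxia, against 154, 139, 157 and 135 CPM in normoxia. The groups overlapped, and the 2 highest values were normoxia replicates 3 and 1. The log2 fold change was −0.07 ± 0.06 (SE; edgeR, adjusted p = 0.525), with a 95% interval of −0.21 to 0.06, the narrowest of the 9 members.

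Ptges3, on chromosome 10 (128058954 to 128077272, plus strand), encodes p23, which steadies the mature complex of HSP90 with the receptor. It was at 104, 95.6, 120 and 99.0 CPM in hypoxia, against 92.7, 89.7, 111 and 107 CPM in normoxia. The groups overlapped over most of their range, and the log2 fold change was 0.06 ± 0.09 (SE; edgeR, adjusted p = 0.741; 95% interval −0.14 to 0.27). A processed pseudogene, Ptges3-ps, is annotated in the table, so reads of this gene could be split between copies.

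Ncoa1, on chromosome 12 (4247362 to 4477182, minus strand), encodes a p160 coactivator that brings histone acetyltransferases to the hormone-bound receptor. It was at 135, 118, 134 and 131 CPM in hypoxia, against 123, 132, 110 and 122 CPM in normoxia. Hypoxia replicates 1 and 3 lay above every normoxia library, and the groups overlapped. The log2 fold change was 0.09 ± 0.07 (SE; edgeR, adjusted p = 0.497; 95% interval −0.06 to 0.24).

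Ncoa2, on chromosome 1 (13139105 to 13374083, minus strand), encodes a p160 protein that serves the glucocorticoid receptor as coactivator and, at some inflammatory genes, as corepressor. It was at 112, 103, 111 and 114 CPM in hypoxia, against 110, 134, 107 and 108 CPM in normoxia. Normoxia replicate 2 stood above the other 7 libraries, which lay within 103 to 114 CPM. Its log2 fold change was −0.06 ± 0.08 (SE; edgeR, adjusted p = 0.713; 95% interval −0.23 to 0.11), and it was 0.03 (adjusted p = 0.762) without that library.

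Ncor1, on chromosome 11 (62316426 to 62458541, minus strand), encodes a corepressor that holds the histone deacetylase HDAC3 at repressed genes. It was at 184, 163, 178 and 178 CPM in hypoxia, against 187, 231, 171 and 175 CPM in normoxia. Here too normoxia replicate 2 was the highest library and the groups overlapped. With all libraries, the log2 fold change was −0.12 ± 0.09 (SE; edgeR, adjusted p = 0.510; 95% interval −0.33 to 0.09), and it was −0.01 (adjusted p = 0.924) without that library. Exons of Ttc19 and Pigl overlap Ncor1 on the opposite strand, and an exon of 4921501I09Rik overlaps Ncoa1, so both levels are uncertain if the counting ignored strand.

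**Figure D3:**
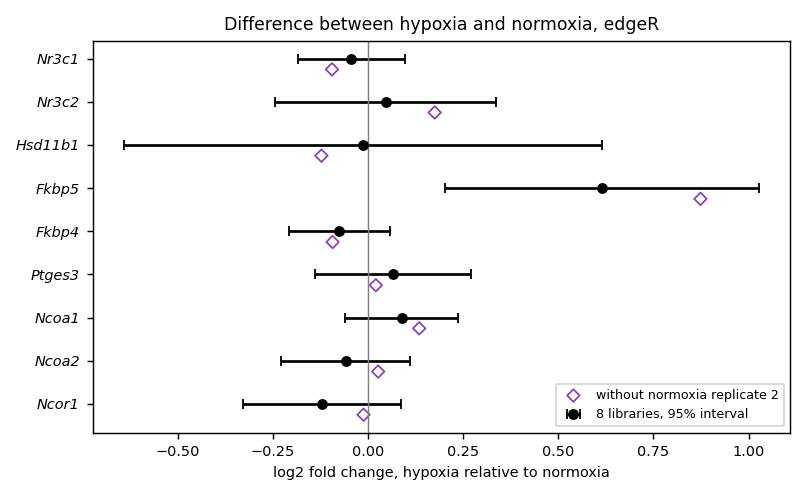
Log2 fold change of each gene in hypoxia relative to normoxia by edgeR, with 95% intervals from all 8 libraries (black) and the estimate without normoxia replicate 2 (open diamonds). The interval of Fkbp5, 0.20 to 1.03, lies above 0 and those of the other 8 genes span 0.

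The coefficient of variation was larger in normoxia than in hypoxia for all 9 members, as it was for 66.9% of all genes tested. Ptges3 was nearly even, at 10.3% in hypoxia and 10.5% in normoxia. Without normoxia replicate 2, the coefficient was larger in normoxia for 4 of the 9 members and for 49.7% of all genes, so the difference in spread rested on that library, and it was not tested. That library was the highest of the 8 in Nr3c2, Ncoa2 and Ncor1 and the lowest in Nr3c1 and Ptges3, so 5 of 9 members had it at an end of the range, near the 51.5% of all genes tested.

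Ratios between members of a pair were taken within each library, where no scaling between libraries enters, and 3 pairs were compared. The ratio of Nr3c2 to Nr3c1 reads was 0.384, 0.377, 0.427 and 0.374 in hypoxia, against 0.331, 0.521, 0.275 and 0.361 in normoxia. On the log2 scale the mean ratio was −1.36 ± 0.09 in hypoxia and −1.47 ± 0.39 in normoxia, and an exact permutation test gave a two-sided p of 0.629 (SD over 4 libraries in each). The hypoxia libraries lay inside the normoxia range.

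The ratio of Fkbp5 to Fkbp4 reads was 0.405, 0.339, 0.444 and 0.391 in hypoxia, against 0.202, 0.382, 0.184 and 0.221 in normoxia. The mean log2 ratio was −1.35 ± 0.16 in hypoxia and −2.08 ± 0.47 in normoxia (SD over 4 libraries in each), a difference of 0.73. By the exact permutation test the two-sided p was 0.0571, and 0.0857 adjusted over the 3 ratios. Normoxia replicate 2 was the library that overlapped with hypoxia.

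The ratio of Ncoa1 to Ncor1 reads was 0.735, 0.721, 0.752 and 0.736 in hypoxia, against 0.657, 0.571, 0.644 and 0.694 in normoxia, so the 4 hypoxia libraries lay above the 4 normoxia libraries. The mean log2 ratio was −0.44 ± 0.03 in hypoxia and −0.64 ± 0.12 in normoxia (SD over 4 libraries in each), a difference of 0.20. The exact permutation test gave a two-sided p of 0.0286, the smallest that 4 against 4 allows, and 0.0857 adjusted over the 3 ratios, which does not pass 0.05. Neither gene was called by itself, and genes on the opposite strand overlap both. Without normoxia replicate 2, the lowest in this ratio, the difference was 0.15.

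**Figure D4:**
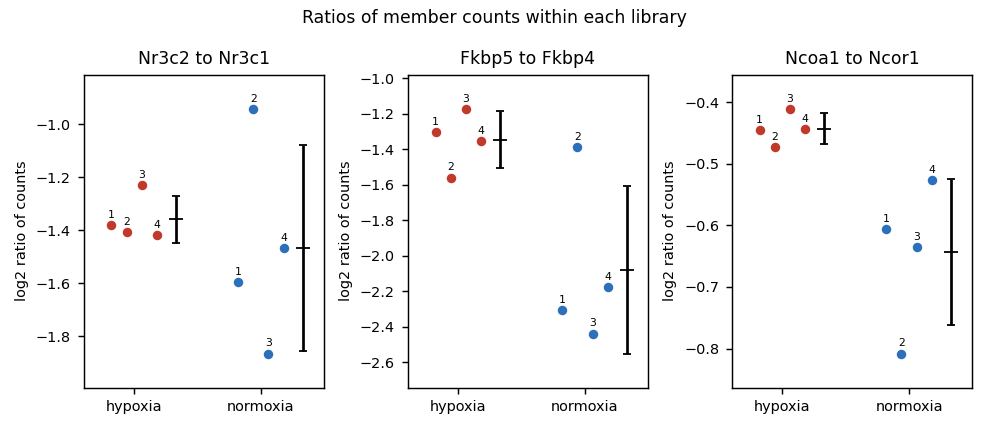
Log2 ratio of read counts within each library for 3 pairs of members, with the replicate number at each point and the mean ± SD of 4 libraries as bars. Hypoxia and normoxia overlap in Nr3c2 to Nr3c1 and in Fkbp5 to Fkbp4, and in Ncoa1 to Ncor1 hypoxia lies at −0.47 to −0.41 against −0.81 to −0.53 in normoxia.

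Levels of different genes were compared as CPM per kilobase of annotated exon, a length that counts the exons of all transcripts and so understates genes with long rare exons. Averaged over the 8 libraries, Fkbp4 was highest at 51.1, followed by Ptges3 at 46.2, at percentiles 95.6 and 94.98 of the genes tested. Their ranges over libraries overlapped. Ncoa1 (14.6), Ncor1 (14.3) and Nr3c1 (12.8) followed, each overlapping its neighbour. Ncoa2 was at 7.19, Nr3c2 at 5.73, Fkbp5 at 4.78 and Hsd11b1 at 2.09, again with overlap between neighbours. The gaps without overlap lay between Ptges3 and Ncoa1 and between Nr3c1 and Ncoa2. Per length, Nr3c1 averaged 12.6 ± 0.332 in hypoxia and 12.9 ± 1.10 in normoxia, and Nr3c2 averaged 5.82 ± 0.283 in hypoxia and 5.63 ± 1.15 in normoxia (SD over 4 libraries in each).

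The genes whose log2 CPM tracked a member most closely over the 8 libraries were ranked by Pearson correlation among 11746 genes. For Fkbp5 they were Cdkn1a (r = 0.978), a cell cycle inhibitor that glucocorticoids and p53 induce, Camsap2 (0.977), which binds microtubule ends, and Hif3a (0.976), which encodes a subunit of the hypoxia-inducible factor family. EdgeR called none of them (adjusted p = 0.103, 0.262 and 0.0981), and Cdkn1a is among the 14 receptor targets described below. Since r was taken across both groups, a difference between groups that genes share enters it. Cdkn1a was at 56.1, 57.9, 68.6 and 40.7 CPM in hypoxia, against 11.99, 44.3, 12.6 and 11.3 CPM in normoxia, and Hif3a at 18.7, 17.9, 22.6 and 17.1 CPM against 8.37, 16.1, 5.51 and 5.36 CPM. Normoxia replicate 2 lay inside the hypoxia range in Cdkn1a, as in Fkbp5, and in Hif3a it lay below every hypoxia library and above the other normoxia libraries. Nr3c1 was tracked by Paqr7 (0.958), Sacm1l (0.957) and Ube4a (0.957), and Nr3c2 by Actr3b (0.966), Nptn (0.963) and Mink1 (0.960). All these points share library depth and the standing of normoxia replicate 2, which was the lowest of the 8 libraries in the 3 genes that tracked Nr3c1 and the highest in the 3 that tracked Nr3c2.

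Other genes of the pathway were taken from 6 lists. Of 15 further chaperones and co-chaperones of the receptor complex, 0 were called by edgeR, with 0 at an unadjusted p under 0.05. Their log2 fold changes ran from −0.02 to 0.09 with a median of 0.03, beside −0.01 over all genes tested. Hsp90ab1, the constitutive HSP90 gene, averaged 1582 CPM in hypoxia and 1526 CPM in normoxia. Ppp5c, a phosphatase that docks on HSP90 as the FKBPs do, had the smallest p of the list, at 98.7 ± 2.66 CPM in hypoxia and 94.0 ± 2.89 CPM in normoxia (SD, n = 4 each; log2 0.07, adjusted p = 0.396).

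Of 12 further coactivators, 0 were called higher and 1 lower, where 0.915% and 1.23% of all genes tested were called higher and lower. At an unadjusted p under 0.05 by edgeR, 1 was higher and 2 lower, where 7.63% and 11.7% of all genes were. Groups did not overlap in 2 of the 12, against 13.4% of all genes tested. The median log2 fold change was −0.09, and −0.015 without normoxia replicate 2. Med1, the Mediator subunit that nuclear receptors contact, fell to 38.7, 38.6, 38.5 and 44.1 CPM in hypoxia, against 54.5, 59.0, 52.8 and 48.6 CPM in normoxia. The groups did not overlap, and the log2 fold change was −0.43 ± 0.07 (SE; edgeR, adjusted p = 0.0284). The call was lost in 6 of the 8 fits without 1 library, all but those without hypoxia replicate 4 or normoxia replicate 2, with log2 fold changes of −0.48 to −0.37 over the 8 fits. Med14, another Mediator subunit, went the other way without overlap but was not called. It was at 83.6 ± 5.21 CPM in hypoxia and 77.1 ± 0.693 CPM in normoxia (SD, n = 4 each; log2 0.12, edgeR, adjusted p = 0.240). Of 10 further corepressors, 0 were called by edgeR and 1, Tbl1x, was called higher by DESeq2, with 3 at an unadjusted p under 0.05 and a median log2 of −0.02. Without normoxia replicate 2 that median was 0.04. Tbl1x, a subunit of the NCOR1 complex, had the smallest p, at 121 ± 2.49 CPM in hypoxia and 107 ± 3.87 CPM in normoxia (SD, n = 4 each; log2 0.17, adjusted p = 0.0770 by edgeR and 0.0156 by DESeq2), and its groups did not overlap.

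Of 8 genes that make, clear or carry corticosteroids, 5 were tested and 0 called, with 0 at an unadjusted p under 0.05. Hsd11b2, the enzyme that inactivates corticosterone, had 0 to 3 reads in a library, Srd5a2 0 to 3 and the carrier globulin gene Serpina6 0 or 1. H6pd, which supplies the cofactor of the Hsd11b1 enzyme, averaged 10.5 CPM in hypoxia and 10.3 CPM in normoxia. Abcb1a, an efflux pump that limits the entry of some steroids into the brain, averaged 36.7 ± 3.21 CPM in hypoxia and 41.7 ± 4.12 CPM in normoxia (SD, n = 4 each; log2 −0.18, adjusted p = 0.281). Of 7 other receptors of the NR3 family, which include those for oestrogen, androgen and progesterone, 0 were called and 1 had an unadjusted p under 0.05. This was Esrra, an orphan receptor of energy metabolism, at 33.6 ± 1.23 CPM in hypoxia and 39.6 ± 6.15 CPM in normoxia (log2 −0.24, adjusted p = 0.253). On the opposite strand, Gm42686 overlaps an exon of Abcb1a and Trmt112 an exon of Esrra. Both levels are thus uncertain if the counting ignored strand.

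Of the 14 receptor targets, edgeR called 5 higher and 0 lower, where 0.915% and 1.23% of all genes were, and 11 were higher at an unadjusted p under 0.05, where 7.63% of all genes were. Their median log2 fold change was 0.70 and 14 of 14 were positive, beside 48.2% of all genes tested. Such genes also answer to other signals, and earlier results for many of them were known when they were listed. The metallothionein genes Mt2 and Mt1 rose by a log2 of 0.90 and 0.52 (adjusted p = 0.000995 and 0.00649 by edgeR), and Errfi1, a feedback inhibitor of the epidermal growth factor receptor, and Ddit4, an inhibitor of the growth kinase mTOR, rose by 0.73 and 1.65 (adjusted p = 0.0158 and 0.0210 by edgeR). An exon of Gm45774 overlaps Mt2 on the opposite strand, so the level of Mt2 is uncertain if the counting ignored strand. Ddit4 was at 135, 149, 133 and 71.4 CPM in hypoxia, against 31.0, 55.4, 36.6 and 32.8 CPM in normoxia, with normoxia replicate 2 again the highest of its group and hypoxia replicate 4 the lowest of its own. Without normoxia replicate 2, 12 of the 14 targets were called higher with a median log2 of 0.89, where 1.91% of all genes were called higher. Without hypoxia replicate 4 it was 7 of the 14, where 1.37% of all genes were, and without any other single library 2 or 3. In the mean of these targets, normoxia replicate 2 and hypoxia replicate 4 were the libraries nearest the other group. Neither fit is thus independent support. Mt2 and Mt1 were called in all 8 fits without 1 library, and Errfi1 and Ddit4 lost the call in 5 and 6 of them. Fkbp5, itself a target and counted among the 9 members, had a log2 fold change of 0.61.

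**Figure D5:**
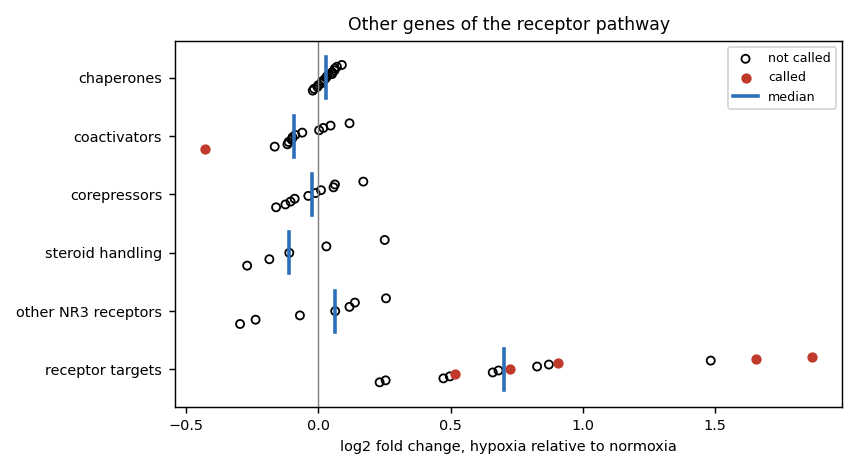
Log2 fold change of each tested gene of 6 lists around the receptors, hypoxia relative to normoxia, with called genes filled in red and the median of each list as a blue bar. The 15 chaperones lie within −0.02 to 0.09, and the 14 receptor targets at 0.23 to 1.87.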

How the data were processed

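Raw read counts per Ensembl gene were deposited by the authors, 1 column per library, for 4 hypoxia and 4 normoxia hypothalami. Per the submitters' processing notes, Trimmomatic, HISAT2 2.0.4, SAMtools, featureCounts and DESeq2 were used with build mm10. Per the labels' protocols, a kit for stranded mRNA libraries was used. For annotation release, strand setting and multi-mapping reads, the settings were not given in the sources used here. Positions, exon lengths and overlaps come from GENCODE M21 on GRCm38, the assembly of mm10, which matched 55227 of 55487 gene IDs, and promoters from RefSeq.

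The whole table of counts was fitted with edgeR 4.0.16 (R 4.3.3): filterByExpr (minimum count 10, total 15), TMM scaling, group as the only term, and Benjamini-Hochberg adjustment over 17047 genes. Intervals use the test's own SE and degrees of freedom, and cover the spread between these libraries. The design text calls them biological replicates. Libraries of a group differed from each other by more than sampling noise (chi-square of 4.64 to 37.7 per gene).

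Replicate numbers showed no pairing of the libraries in their counts, which cannot exclude pairing in the handling, so the block is an alternative. DESeq2 1.42.0, limma-voom (limma 3.58.1), other scalings and left-out libraries were also tried. Members and lists were chosen with earlier results of these data known. Named were the 9 members, the called genes of each list (at most 4, by p) or else its gene with the smallest p, and the 3 genes tracking Nr3c1, Nr3c2 and Fkbp5 best among those of at least 5 CPM. Hsp90ab1, H6pd, Med14 and the 3 genes below the filter were named outside that rule.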

Additional observations from a re-analysis of the deposited data

Results flagged for a closer look

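Within groups of 4 libraries, the gap between an extreme library and its nearest neighbour was set against the whole range of the group. In 7 of 36 groups the gap was above Dixon's 95% critical value, which chance gives in about 1 in 20 independent groups. These groups are not independent, since all genes share the same 8 libraries and normoxia replicate 2 was at an end in 51.5% of genes tested. The share of all genes above that value was not counted. Of these, 4 concern members. Fkbp5 was at 53.3 CPM in normoxia replicate 2, against 29.0 to 31.0 CPM in the other normoxia libraries. Ncoa2 was at 133.6 CPM in the same library, against 107 to 110.5 CPM. Hsd11b1 was at 14.8 CPM in normoxia replicate 1, against 6.75 to 7.35 CPM. Fkbp4 was at 146.5 CPM in hypoxia replicate 2, against 136 to 137 CPM. Among the other named genes, Med1 was at 44.1 CPM in hypoxia replicate 4, against 38.5 to 38.7 CPM. Esrra was at 35.4 CPM in hypoxia replicate 1, against 32.95 to 33.04 CPM in the others, and Mt2 was at 67.2 CPM in normoxia replicate 1, against 70.8 to 71.5 CPM. Marker sums of the libraries concerned stand beside the members' values, and their part was not tested.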

How the results depend on the processing

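The count of members called was 0 in 14 of 17 alternatives and 1, Fkbp5, with DESeq2, without normoxia replicate 2, and without that library and hypoxia replicate 4 together (0 to 1 with 1 library left out). Over all genes, 156 were higher and 210 lower. It was 384 and 624 with DESeq2, 456 and 739 without both of those libraries, and 342 lower with scaling by library size alone. With 1 library left out it was 24 to 329 higher and 2 to 457 lower. With the replicate block it was 20 higher and 1 lower. Deviations of same-numbered libraries from their group means had correlations of −0.11 to 0.04. These show no pairing, but cannot exclude that mice were handled in numbered pairs. Under the block the log2 fold change of Fkbp5 was 0.66 (edgeR, adjusted p = 0.193). Of the other named genes, Med1 (−0.43, adjusted p = 0.134) and Errfi1 (0.71, adjusted p = 0.0592) were not called under the block. Fkbp4, Fkbp5, Ncoa1 and Ncor1 kept their direction in all 17 alternatives. The sign turned in 5 uncalled members when libraries were left out. Over the fits without 1 library or without both of those named, the log2 fold change ran from −0.10 to 3.1e-05 for Nr3c1 (positive without normoxia replicate 1) and from −0.061 to 0.19 for Nr3c2 (negative without normoxia replicate 3). It ran from −0.18 to 0.35 for Hsd11b1, from −0.0067 to 0.12 for Ptges3 (negative without hypoxia replicate 3) and from −0.084 to 0.027 for Ncoa2 (positive without normoxia replicate 2). Hsd11b1 was positive without hypoxia replicate 3 or 4 or normoxia replicate 1, and also with limma-voom (0.026) and the replicate block (0.035). Over the same fits, the log2 ratio differences were −0.024 to 0.30 for Nr3c2 to Nr3c1, 0.61 to 0.96 for Fkbp5 to Fkbp4, and 0.15 to 0.24 for Ncoa1 to Ncor1. By exact permutation the last had p = 0.0571 without 1 library, p = 0.1 without both, and p = 0.125 with the replicate block (difference 0.20), in each case the smallest p that design allows. Members had at least 127 reads in every library, Hsd11b1 the fewest.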
